A study of Arabidopsis thaliana with 15 samples.

Results

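After 48 h of FAMA induction a set of 109 probe sets, 0.479% of the 22746 on the array that are not manufacturer controls, stood well above the uninduced seedlings of the same age. The median difference over the set was 2.01 log2 units of log2(signal + 20), which is 4.04-fold on that scale, and the largest was 5.62. The set had not moved at 4 h and did not move with FAMA-EAR, because it was chosen that way. Among its 53 named genes were APL3, an enzyme subunit of starch synthesis, the calreticulin gene CRT1b, the acyl activating enzyme gene AAE16, the peptide gene CLE41, the transcription factor gene WRKY6 and genes of wall enzymes, peroxidases, GDSL lipases, proteases and receptor-like kinases.

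A probe set is a group of short probes for a transcript, and its signal is the brightness that MAS5, the array maker's summary method, computes from them. Values were compared as group means of log2(signal + 20). A probe set was kept if FAMA 48 h exceeded control 48 h by at least 1.5, FAMA 4 h and control 4 h differed by less than 0.38, and FAMA-EAR 48 h and control 48 h differed by less than 0.5. Its mean signal at FAMA 48 h also had to reach 200, and all 3 FAMA 48 h arrays had to lie above all 3 control 48 h arrays. The first criterion left 221 probe sets, the bound at 4 h left 150, the bound on FAMA-EAR left 124 and the signal criterion left 113, none of which the last criterion removed. The rule also set aside expansin, XTH and tetraspanin genes and a few single genes by name, which took out TET4, XTH16, XTH32 and AT1G22690. Probe sets with no gene name could not be sorted by name, so such genes may remain among them.

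The study used whole seedlings of Arabidopsis thaliana, ecotype Columbia, with 3 arrays in each of 5 groups. FAMA 48 h seedlings carried an estrogen-inducible FAMA cassette and were 7 days old after 48 h on 10 µM estrogen, FAMA-EAR 48 h seedlings were of the same age and treatment but expressed FAMA joined to the EAR repression domain, and control 48 h seedlings had been moved to fresh plates without estrogen. FAMA 4 h and control 4 h seedlings were 5 days old and were taken 4 h after the same transfers. All plants grew on MS medium with sucrose at 22 °C in continuous light. The labels name neither the genotype of the controls nor the number of transgenic lines, and comparisons with a control hold estrogen and the construct together. Nothing in them tells whether replicates came from independent plants or plates, so the tests weigh differences against a spread between samples that may be partly technical.

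FAMA is a basic helix-loop-helix transcription factor of the stomatal lineage. In leaves it acts when a guard mother cell makes its last division, stops further division and starts the differentiation of the guard cells, the paired cells that open and close each stomatal pore. Differentiating guard cells build a locally thickened, flexible wall, store starch in their plastids, and import and release ions, sugars and malate as they change volume. The EAR motif recruits corepressors, so a factor fused to it tends to repress the genes it would otherwise activate.

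The induced transcript was read first. FAMA (FMA, AT3G24140) had signals of 18576.3, 16934.1 and 18562.6 in FAMA 48 h seedlings, 3456.5, 2726.0 and 2998.5 in FAMA-EAR 48 h seedlings and 255.0, 245.9 and 229.6 in control 48 h seedlings. At the earlier harvest it had 12830.6, 12604.5 and 11695.5 in FAMA 4 h seedlings and 255.7, 251.7 and 230.3 in control 4 h seedlings. Every induced array was thus far above every control array, and FAMA transcript was already high at 4 h, when the 109 probe sets stood near their controls. FAMA-EAR arrays read lower than FAMA arrays for this probe set.

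Array medians lay between 188.2 and 199.0 on 14 arrays, and the third FAMA 4 h array stood apart with 239.5. Without that array the rule chose 110 probe sets, 94 of them among the 109. RNA quality was read from the log2 ratio between probe sets at the 3' and the 5' end of actin and GAPDH transcripts, which goes up as RNA breaks down. Averaged over both genes it was 0.191 to 0.214 on FAMA 48 h arrays, 0.533 to 0.731 on FAMA-EAR 48 h arrays, 0.297 to 0.495 on control 48 h arrays, 0.376 to 0.447 on FAMA 4 h arrays and 0.345 to 0.399 on control 4 h arrays. FAMA 48 h arrays were the lowest in this average through actin, at 0.509 to 0.578 against 0.748 to 1.16 on all other arrays. For GAPDH their range of -0.150 to -0.123 lay inside that of the control 48 h arrays, -0.363 to 0.0348. The part of RNA quality in the differences was not tested. In RNA from whole seedlings, more cells of a type and more RNA per cell cannot be told apart.

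Over the 109 probe sets, the quartiles of the FAMA 48 h minus control 48 h difference were 1.68 and 2.79. It reached 2 in 56 probe sets, 2.5 in 35, 3 in 19 and 4 in 4, while the median of all probe sets was -0.02. The 3 FAMA 48 h arrays read the set alike, with medians of 1.96, 1.98 and 2.10 above the control 48 h mean. FAMA-EAR 48 h arrays had medians of -0.04, -0.03 and 0.00, FAMA 4 h arrays 0.20, 0.16 and 0.32, and control 4 h arrays 0.21, 0.12 and 0.15. The 4 h arrays with and without FAMA thus sat slightly above the 48 h controls. The SD between arrays on the log2 scale had a median of 0.119 over the members in FAMA 48 h seedlings, against 0.203 in control 48 h seedlings.

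**Figure D1:**
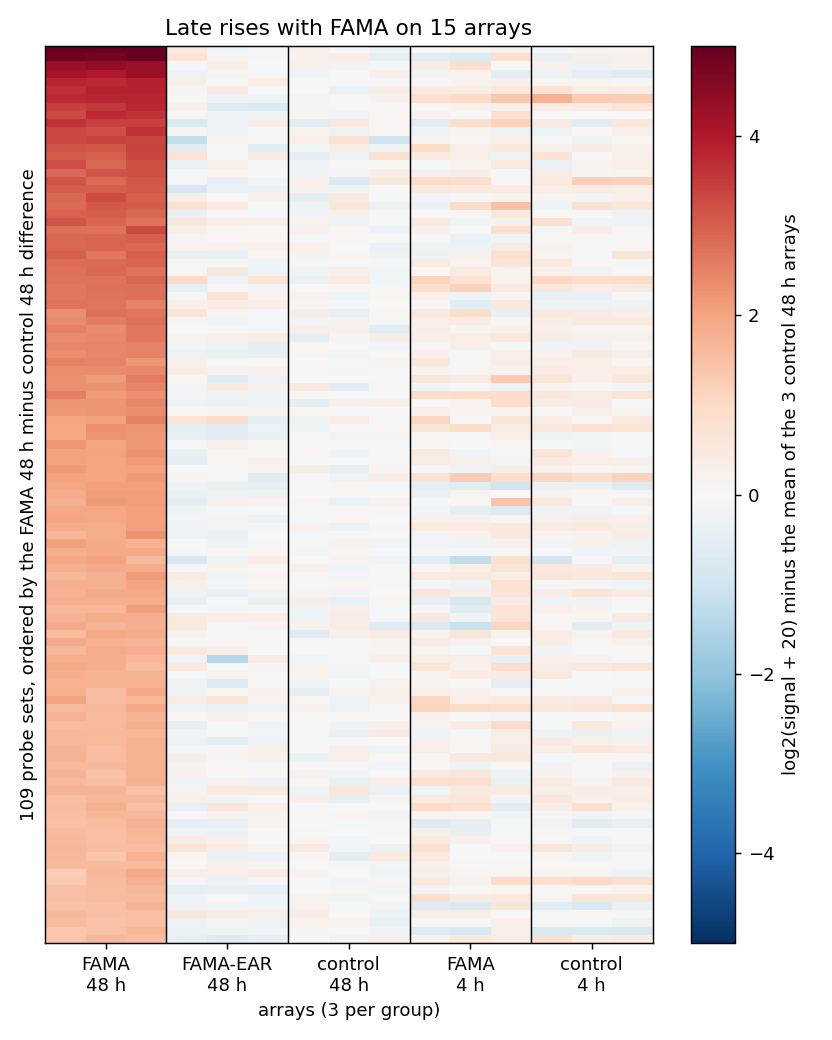
Each row is a member of the set of 109 probe sets and each column an array, in 5 groups of 3. Colour gives log2(signal + 20) minus the mean of the 3 control 48 h arrays, and values beyond the ends of the scale take its end colours. FAMA 48 h arrays are red in every row, with array medians of 1.96 to 2.10, and the medians of the other arrays lie between -0.04 and 0.32, although single rows of the 4 h groups lie further from 0.

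The rule placed bounds on the members in each comparison it used, so their values there are given without tests. At 4 h the FAMA minus control difference ran from -0.36 to 0.37, with a median of 0.05 against 0.09 for all probe sets, and was above 0 in 64 members and below 0 in 45. With FAMA-EAR the difference from control 48 h ran from -0.48 to 0.46, with a median of -0.04, above 0 in 53 and below 0 in 56. FAMA 48 h exceeded FAMA-EAR 48 h by 1.09 to 5.54 with a median of 2.11, at the same time on estrogen. For all 109 members every FAMA 48 h array lay above every FAMA-EAR 48 h array, a separation seen in 20.5% of all probe sets, and above every FAMA 4 h array, seen in 14.4%. The rule all but fixes both counts, and nothing is read from them.

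FAMA 48 h exceeded FAMA 4 h by 0.74 to 5.52 with a median of 1.91. The difference was under 1 in 3 members, of which BETA-VPE, at 0.74, has a name. It had signals of 541.0, 554.2 and 663.4 in FAMA 48 h seedlings and 379.1, 333.0 and 312.8 in FAMA 4 h seedlings.

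In a check added after the members had been seen, the rule was also applied without replicate 1, 2 or 3 of FAMA 48 h and of control 48 h, and the pair of arrays left out was then read. The rule chose 115, 109 and 107 probe sets, of which 101, 93 and 97 were among the 109. In the arrays left out, their median differences were 1.92, 1.99 and 2.02, against 2.005, 1.976 and 1.958 in the arrays used. All of them were above 0 in the arrays left out, the lowest at 0.86, and 92, 86 and 91 reached 1.5. The differences were thus of like size in the arrays left out, which is given as a description. Those arrays came from the same experiment, and the 4 h and FAMA-EAR arrays stayed in each choice. The set had also been chosen with earlier results of these data known.

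Of the signalling and regulatory genes, AT3G58000, a VQ-motif protein gene, had the largest difference among named members. VQ proteins bind WRKY transcription factors. It had signals of 1662.9, 1476.7 and 1868.6 in FAMA 48 h seedlings, 58.4, 87.4 and 68.2 in FAMA-EAR 48 h seedlings, 60.4, 72.5 and 93.6 in control 48 h seedlings, 61.1, 86.6 and 45.7 in FAMA 4 h seedlings and 59.5, 49 and 40 in control 4 h seedlings. Only the FAMA 48 h arrays left the low range, by 4.15 log2 units over control 48 h, which is 17.8-fold on the log2(signal + 20) scale. A related VQ gene, AT4G15120, had 280.3, 274.8 and 246.1 in FAMA 48 h seedlings against 57.4, 58.3 and 80.4 in control 48 h seedlings. Its FAMA-EAR values, 51.7, 11.4 and 92.0, spread widely around those controls.

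WRKY6, a transcription factor of senescence and phosphate responses, lay closest to the edge of the rule, with differences of 1.502 for FAMA and -0.48 for FAMA-EAR. Its signals were 595.2, 707.0 and 675.2 in FAMA 48 h seedlings, 158.3, 136.1 and 161.0 in FAMA-EAR 48 h seedlings, 214.6, 186.2 and 262.7 in control 48 h seedlings, 255.3, 321.7 and 299.4 in FAMA 4 h seedlings and 382.1, 289.3 and 300.6 in control 4 h seedlings. Here the FAMA-EAR arrays all lay below the control 48 h arrays, within the bound the rule allowed.

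CLE41 encodes a peptide signal that promotes the division of vascular stem cells. Its signals were 2677.4, 2439.8 and 2171.3 in FAMA 48 h seedlings, 645.2, 537.6 and 603.7 in FAMA-EAR 48 h seedlings and 608.5, 721.2 and 583.9 in control 48 h seedlings, a difference of 1.90. The leucine-rich repeat protein gene AT1G03440 had 2827.0, 3003.3 and 2695.3 in FAMA 48 h seedlings against 303.4, 402.7 and 344.9 in control 48 h seedlings (2.96). AT3G58640, a protein kinase gene of the Raf-like group, differed by 2.47. The receptor-like kinase genes AT5G43020 and AT5G58150 differed by 1.65 and 1.55, and AT5G58150 read 723.1, 761.1 and 833.1 in FAMA 48 h seedlings, 172.1, 183.6 and 181.4 in FAMA-EAR 48 h seedlings and 252.0, 276.2 and 224.1 in control 48 h seedlings. Differences in this group of 8 genes ran from 1.502 to 4.15 and covered a peptide, receptor-like kinases, another kinase and a transcription factor.

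**Figure D2:**
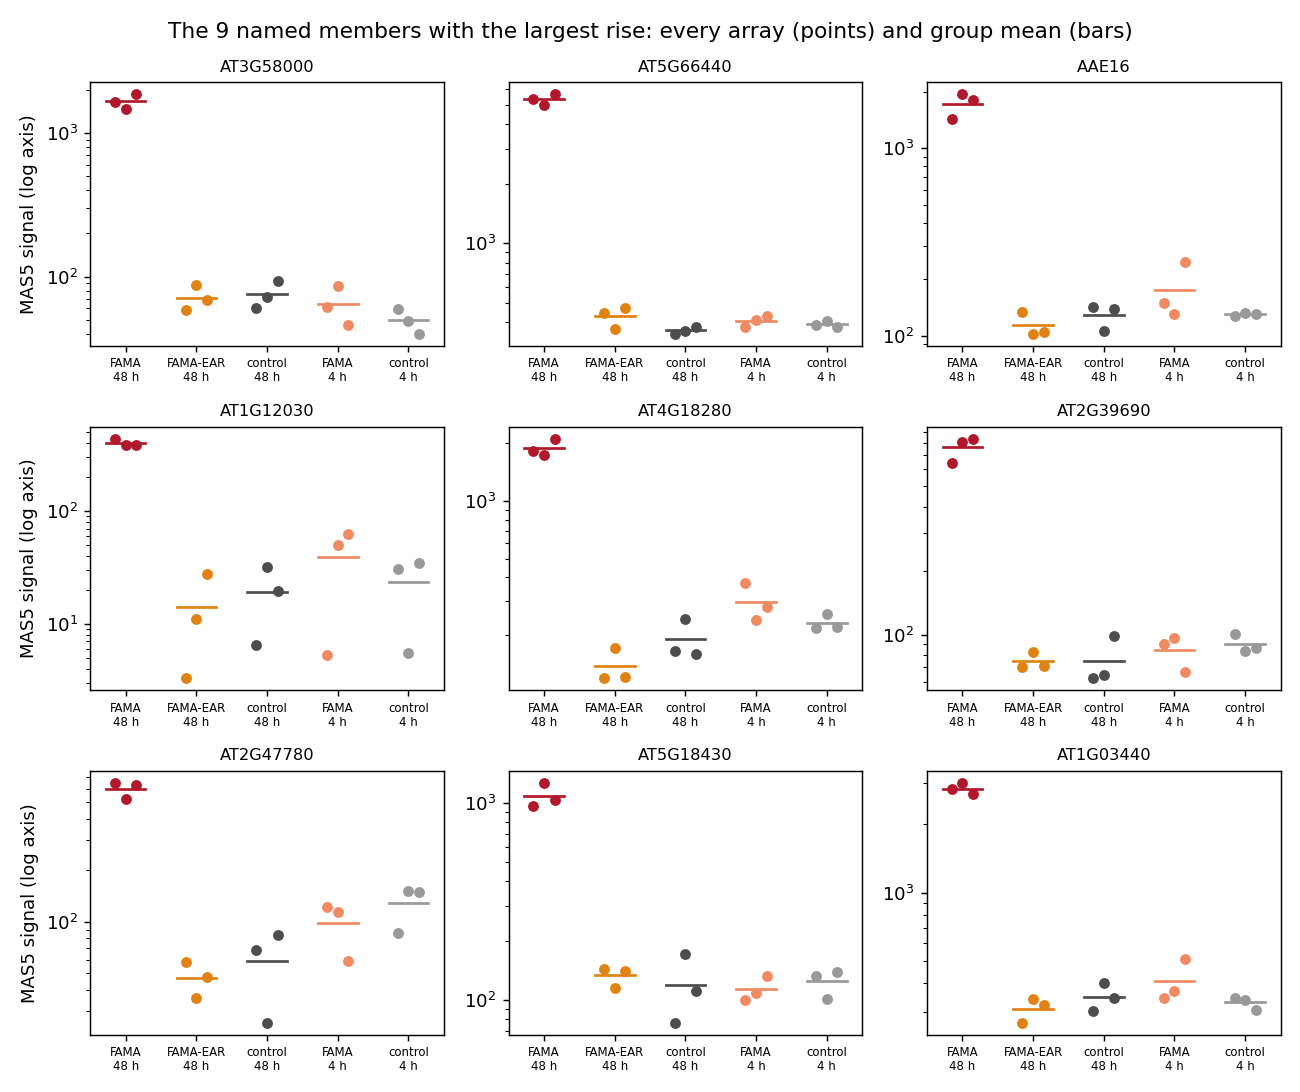
Panels show the 9 named members with the largest FAMA 48 h minus control 48 h difference, on a log axis of MAS5 signal whose range differs between panels. Points are arrays, 3 in each of the 5 groups, and bars are group means. In each panel the 3 FAMA 48 h points lie above all 12 others.

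Cell wall genes numbered 5. AT4G18280, of the glycine-rich wall proteins, had signals of 1815.8, 1733.6 and 2112.9 in FAMA 48 h seedlings, 118.7, 171.5 and 120.2 in FAMA-EAR 48 h seedlings and 165.0, 242.9 and 159.5 in control 48 h seedlings, a difference of 3.21. AT5G04310, a pectate lyase family gene whose products cut pectin, had 820.6, 641.5 and 825.6 in FAMA 48 h seedlings against 100.6, 90.1 and 70.5 in control 48 h seedlings (2.87). AT3G62820 belongs to the inhibitors of invertases and pectin methylesterases, the second of which remove methyl groups from pectin, and it differed by 2.72. GH9B12, of the cellulase family GH9, and TBL38, of a family that acetylates wall polysaccharides, were near the threshold at 1.53 and 1.504.

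Enzymes that oxidise substrates outside the cell gave 4 members. The class III peroxidase gene AT4G36430 had signals of 1949.4, 1656.4 and 1459.4 in FAMA 48 h seedlings, 314.2, 272.7 and 260.8 in FAMA-EAR 48 h seedlings and 234.9, 173.9 and 205.3 in control 48 h seedlings (2.93). AT5G21105, an ascorbate oxidase gene, had 4952.6, 5407.5 and 5522.6 in FAMA 48 h seedlings, 805.1, 756.0 and 724.2 in FAMA-EAR 48 h seedlings and 1077.5, 898.5 and 980.6 in control 48 h seedlings (2.40). Both sets of FAMA 48 h values were clear of all others, and FAMA-EAR stood slightly above the controls for the peroxidase and slightly below them for the oxidase. AT5G19580, a glyoxal oxidase-related gene, differed by 2.58. The peroxidase gene AT5G06730, at 209.4, 227.3 and 168.3 in FAMA 48 h seedlings and 39.3, 49.6 and 34.6 in control 48 h seedlings, lay just inside the signal criterion.

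Lipid genes included the largest named difference after AT3G58000 among genes with a role given here. AAE16, an acyl activating enzyme gene, had signals of 1428.0, 1935.9 and 1798.0 in FAMA 48 h seedlings, 134.1, 102.5 and 105.2 in FAMA-EAR 48 h seedlings, 142.3, 105.8 and 138.4 in control 48 h seedlings, 149.5, 129.9 and 247.3 in FAMA 4 h seedlings and 126.9, 131.8 and 130.7 in control 4 h seedlings, a difference of 3.55 over control 48 h. AT2G47780, of a lipid droplet protein family, had 644.4, 519.5 and 631.8 in FAMA 48 h seedlings against 68.1, 25.8 and 84.3 in control 48 h seedlings (3.04). PGL34, a plastoglobulin that coats lipid bodies of plastids, differed by 2.10, and HOS3-1, a fatty acid elongase family gene, by 1.64. AT3G58000 and PGL34 are next to each other on chromosome 3 with no protein-coding gene between them in the TAIR10.1 gene table, the only such pair among the 53 named members.

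The 3 GDSL esterase or lipase genes, a large family of secreted hydrolases, differed by 3.03 (AT5G18430), 2.15 (AT2G04570) and 1.78 (AT1G75880). AT5G18430 had signals of 966.7, 1257.5 and 1039.1 in FAMA 48 h seedlings, 144.7, 115.8 and 140.8 in FAMA-EAR 48 h seedlings and 77.0, 171.6 and 112.0 in control 48 h seedlings. AT2G04570 had 3200.5, 4118.2 and 3825.9 in FAMA 48 h seedlings, 599.8, 546.1 and 659.0 in FAMA-EAR 48 h seedlings, 703.1, 884.1 and 882.6 in control 48 h seedlings, 1260.5, 1562.1 and 1056.0 in FAMA 4 h seedlings and 1234.5, 1459.7 and 1326.0 in control 4 h seedlings. In AT2G04570 the 4 h arrays, with or without FAMA, all lay above the control 48 h arrays.

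Among genes of sugar metabolism, APL3 encodes a large subunit of ADP-glucose pyrophosphorylase, the enzyme that commits glucose to starch. It had signals of 860.4, 832.4 and 1243.6 in FAMA 48 h seedlings, 141.7, 124.1 and 109.7 in FAMA-EAR 48 h seedlings, 129.4, 119.0 and 84.5 in control 48 h seedlings, 129.0, 112.2 and 205.2 in FAMA 4 h seedlings and 105.3, 142.9 and 115.6 in control 4 h seedlings. The third FAMA 48 h array was the highest, and the difference was 2.92. PDC2, a pyruvate decarboxylase gene, differed by 1.73, and GFAT, whose enzyme makes the amino sugar glucosamine 6-phosphate, by 1.74.

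Transport genes were AT1G68600, of the family of aluminium-activated malate transporters, AT2G41190, of the amino acid transporters, and SAG29, also called SWEET15, a sugar transporter. AT1G68600 had 1012.5, 1048.0 and 1096.1 in FAMA 48 h seedlings, 132.6, 248.5 and 167.9 in FAMA-EAR 48 h seedlings and 164.1, 118.2 and 156.1 in control 48 h seedlings, a difference of 2.70. AT2G41190 differed by 2.31, with signals of 996.0, 748.6 and 854.9 in FAMA 48 h seedlings, 303.0, 314.5 and 310.9 in FAMA 4 h seedlings and 230.2, 211.8 and 266.6 in control 4 h seedlings. Its FAMA 4 h arrays already lay above the 4 h controls, by 0.37, just inside the bound of the rule. SAG29 differed by 1.58.

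In the endoplasmic reticulum and secretory path, CRT1b, a calreticulin that binds calcium and helps proteins fold, had signals of 14396.3, 15066.6 and 15878.7 in FAMA 48 h seedlings, 3364.0, 3489.6 and 3568.8 in FAMA-EAR 48 h seedlings, 3368.1, 2997.5 and 3138.8 in control 48 h seedlings, 3750.3, 3546.0 and 3559.5 in FAMA 4 h seedlings and 3207.9, 3992.6 and 3506.0 in control 4 h seedlings (2.25). PRA1.B4, a prenylated RAB acceptor of vesicle traffic, differed by 1.86, and AT1G75760, of the receptors that return resident proteins to the endoplasmic reticulum, by 1.68. The SD between FAMA 48 h arrays on the log2 scale was 0.042 for PRA1.B4, 0.071 for CRT1b and 0.098 for AT1G75760. PRA1.B4 had 2253.9, 2381.5 and 2279.2 in FAMA 48 h seedlings against 741.6, 542.4 and 599.0 in control 48 h seedlings.

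Protease genes were the aspartyl protease genes AT3G20015 and AT4G16563, at differences of 2.85 and 2.63, and BETA-VPE, a vacuolar processing enzyme, at 1.72. AT3G20015 had signals of 2626.1, 2723.5 and 2868.2 in FAMA 48 h seedlings, 345.3, 343.5 and 313.9 in FAMA-EAR 48 h seedlings and 345.8, 369.9 and 375.5 in control 48 h seedlings. BETA-VPE had 133.6, 126.5 and 130.9 in FAMA-EAR 48 h seedlings, 194.3, 129.1 and 172.0 in control 48 h seedlings and 251.4, 255.6 and 296.0 in control 4 h seedlings, so its lowest arrays were those of FAMA-EAR 48 h and control 48 h.

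**Figure D3:**
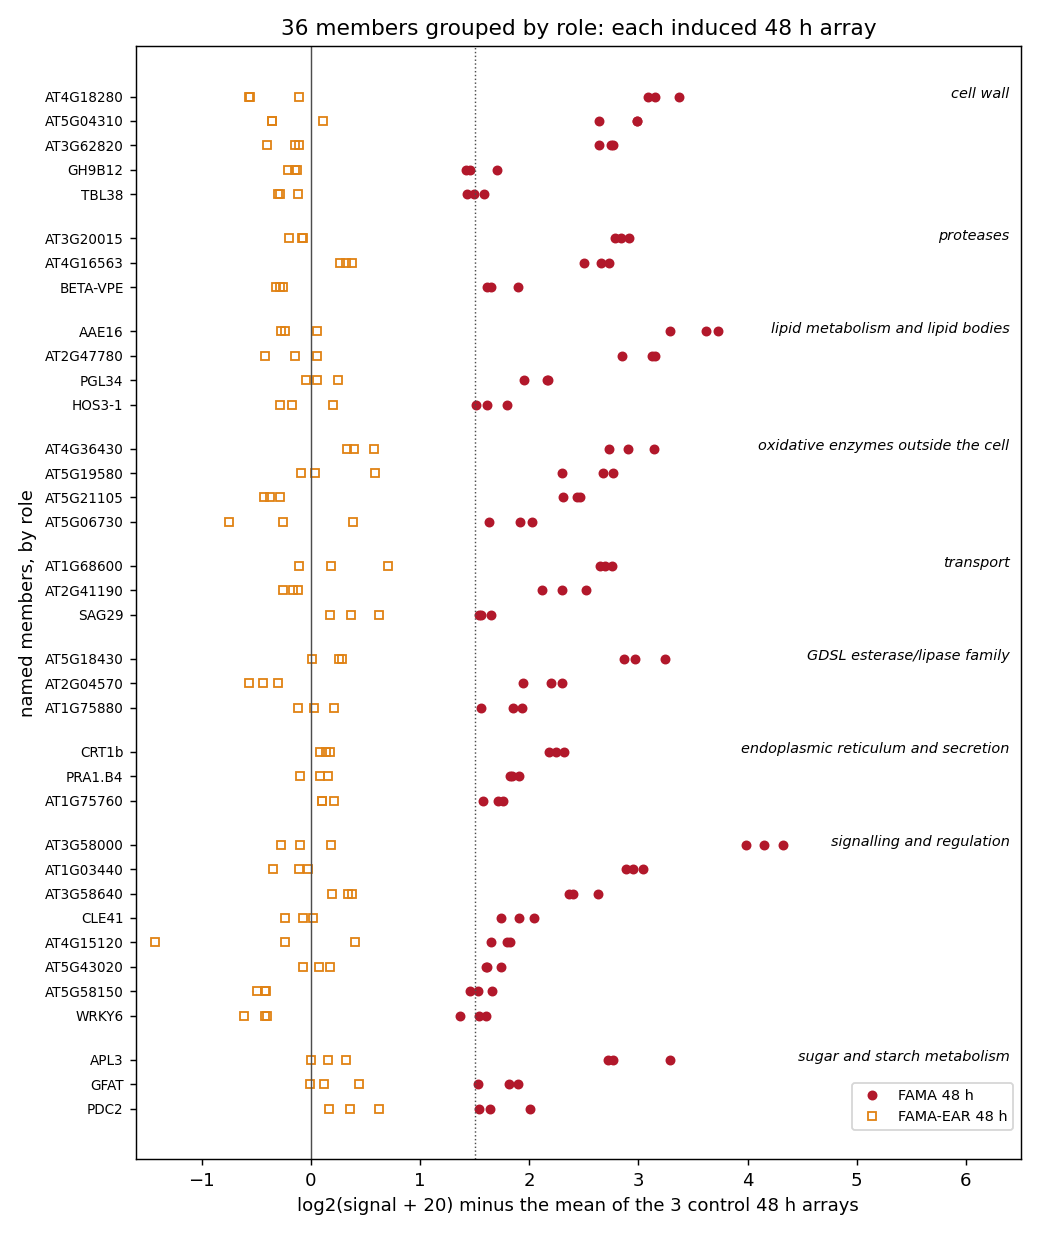
Rows are the 36 named members that were given a role, grouped by role and ordered by difference within each group. Points are single arrays of FAMA 48 h (filled) and FAMA-EAR 48 h (open squares) as log2(signal + 20) minus the mean of the 3 control 48 h arrays, with a dotted line at the threshold of 1.5 for the mean. FAMA 48 h points lie to the right of FAMA-EAR points in every row, and FAMA-EAR points scatter about 0, most widely for AT4G15120.

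A further 17 named members were given no role group. AT5G66440 had the second largest difference of all named members, with signals of 5347.6, 5002.5 and 5664.2 in FAMA 48 h seedlings, 442.0, 369.2 and 472.5 in FAMA-EAR 48 h seedlings, 349.5, 362.6 and 378.7 in control 48 h seedlings, 376.9, 407.5 and 428.9 in FAMA 4 h seedlings and 387.7, 405.1 and 378.5 in control 4 h seedlings (3.80). AT1G12030 had 439.1, 389.1 and 386.1 in FAMA 48 h seedlings against 6.5, 31.9 and 19.7 in control 48 h seedlings, which is near background, so its difference of 3.48 depends on the offset of 20. AT2G39690 differed by 3.05, AT1G11850 by 2.88, AT1G17830 by 2.77 and AT1G14460 by 2.51. Of those with a known family, JAL23, a jacalin-related lectin, differed by 2.18, AT2G36970, a glycosyltransferase gene, by 1.81 and AT1G06640, a gene of the oxygenases that use 2-oxoglutarate, by 1.58. The other 8 differed by 1.52 (AT2G48030) to 2.11 (AT4G00750).

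The remaining 56 members had no gene in the probe table and are described only as a group. Their differences ran from 1.503 to 5.62 with a median of 1.97, against 1.502 to 4.15 with a median of 2.11 for the named members, and 3 of the 4 members at or above 4 were unnamed. The largest had signals of 7751.7, 7496.0 and 9597.9 in FAMA 48 h seedlings, 215.9, 130.3 and 136.8 in FAMA-EAR 48 h seedlings and 182.0, 144.3 and 121.8 in control 48 h seedlings, a difference of 5.62, which is 49.2-fold on the log2(signal + 20) scale. Control 48 h signals were under 50 for 8 of the 109 members and under 100 for 30, and the fold of these leans most on the offset.

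Members just inside each threshold and probe sets just outside it had like values. For the difference of 1.5, WRKY6, an unnamed probe set and TBL38 stood just inside at 1.502, 1.503 and 1.504, and NDB2 and 2 unnamed probe sets just outside at 1.497, 1.497 and 1.496. At the bound of 0.38 for 4 h, AT2G41190 and AT3G62820 stood just inside at 0.37, with an unnamed probe set at -0.36, while an unnamed probe set at 0.38, AT1G16850 at 0.39 and AT1G79640 at 0.40 were just outside. For FAMA-EAR, WRKY6 and an unnamed probe set at -0.48 and AT1G17830 at 0.46 were just inside, and unnamed probe sets at 0.50, 0.51 and -0.51 just outside. In mean FAMA 48 h signal, AT5G06730 at 201.7, an unnamed probe set at 217.8 and JAL23 at 224.2 were just inside, with AT1G69050 at 191.3, AT1G10585 at 189.2 and AT4G21740 at 185.3 just outside. The bounds at 4 h and on FAMA-EAR and the signal criterion alone kept out 43, 15 and 11 probe sets that met all the others.

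The change over 2 days without induction is given as a description. Control 48 h was the baseline of the rule, which favours members with low 48 h controls, and control 4 h entered its bound at 4 h, so neither the calls nor the direction in this comparison is independent of the choice of members. In limma 12 members were lower and 2 higher in control 48 h than in control 4 h seedlings, which is 11.0% and 1.83%, against 3.81% and 3.37% of all probe sets, or 14 members in all (12.8%) against 7.18%. Nothing is read from these counts. The count of 14 was 5 without the third control 4 h array, 9 without the second control 4 h array, and 9 without the first or the second control 48 h array. It was also 9 with array medians set equal or with a test without moderation, and 7 with no variance trend.

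The named members among the 14 were 6, all lower at 48 h. AT2G04570 had a difference of -0.69, BETA-VPE of -0.65, AT4G24130 of -0.59, AT2G41190 of -0.52, WRKY6 of -0.51 and AT3G62820 of -0.46. Only AT2G04570 kept its call in all 26 alternatives. The call was lost in 14 for WRKY6, 7 for AT3G62820, 4 each for AT4G24130 and AT2G41190 and 2 for BETA-VPE. AT4G24130, a gene given no role here, had signals of 356.6, 303.6 and 358.3 in control 48 h seedlings against 525.3, 494.3 and 535.6 in control 4 h seedlings. AT3G62820 had 506.6, 540.8 and 494.8 in control 48 h seedlings against 770.2, 670.9 and 704.6 in control 4 h seedlings. The control arrays of the 2 times did not overlap for these genes. Since the rule favoured members with low 48 h controls, nothing is read from this or from which calls were kept.

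Over all 109 members the median difference was -0.15, with 79 below 0 and 30 above, where all probe sets had a median of 0.03. Unnamed and named members were alike in this, with medians of -0.16 and -0.14. The extremes, at -1.42 and 0.73, were unnamed probe sets, the second of which was also the unnamed one just inside the threshold of 1.5.

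**Figure D4:**
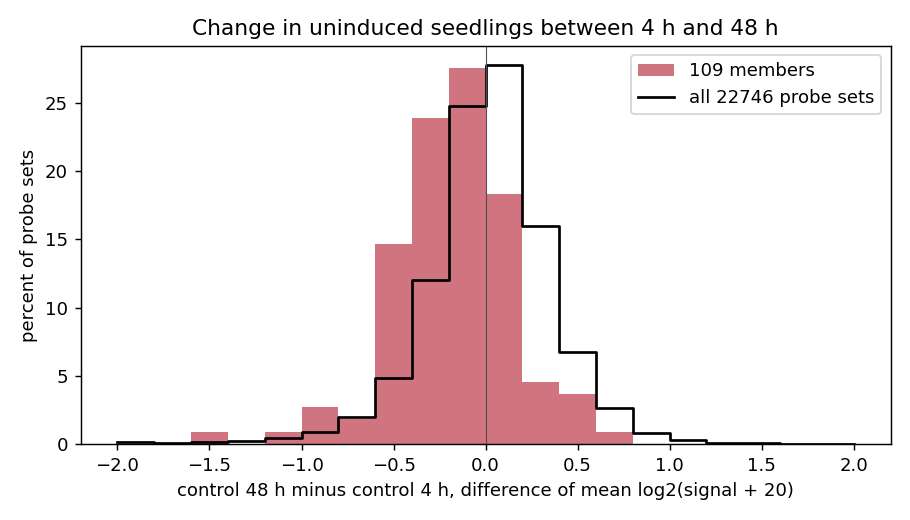
Bars give the percent of the 109 members, and the line that of all 22746 probe sets, in each bin of the control 48 h minus control 4 h difference of mean log2(signal + 20), with values beyond the axis placed in the end bins. The bars sit to the left of the line, with medians of -0.15 and 0.03, in a comparison whose arrays the rule had used.

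Related genes outside the set were picked by family and not by response, and their values were tested in limma. Genes that met every criterion of the rule cannot be among them. For 10 families or subfamilies of members, 80 other genes with matching symbols had a named probe set. Genes without a matching symbol or synonym could not be found this way, so the counts may not cover whole families. After 48 h of FAMA 9 of these rose and 15 fell, or 11.2% and 18.8%, where 10.6% of all probe sets rose and 11.0% fell (21.6% in all). At 4 h of FAMA 0 rose and 3 fell, against 1.15% and 1.77% of all probe sets (2.92% in all). With FAMA-EAR 0 rose and 4 fell, against 1.39% and 1.81% (3.2% in all). In uninduced seedlings 3 were higher and 1 lower at 48 h, against 3.37% and 3.81% of all probe sets (7.18% in all).

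APL4, the closest relative of APL3 with a named probe set, had signals of 654.1, 718.5 and 833.1 in FAMA 48 h seedlings, 65.7, 109.7 and 78.3 in FAMA-EAR 48 h seedlings, 59.7, 77.8 and 76.6 in control 48 h seedlings, 84.9, 79.0 and 164.3 in FAMA 4 h seedlings and 58.5, 75.9 and 72.1 in control 4 h seedlings. It rose by 3.05 at 48 h of FAMA (SE 0.236, adjusted p = 5.11e-09 in limma). APL4 was outside the set because its difference at 4 h was 0.49, which did not pass (adjusted p = 0.295 in limma) and to which the third FAMA 4 h array contributed the highest value. APL4 was thus high at 48 h of FAMA and near control with FAMA-EAR, while for APL3 the rule required both.

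WRKY42, a relative of WRKY6, had 186.7, 212.0 and 233.0 in FAMA 48 h seedlings, 12.6, 8.7 and 3.9 in FAMA-EAR 48 h seedlings and 57.4, 32.3 and 42.6 in control 48 h seedlings. It rose by 1.86 with FAMA (SE 0.386, adjusted p = 0.0011 in limma), and its FAMA-EAR difference of -1.17 did not pass (adjusted p = 0.117 in limma), although the arrays did not overlap. Of the 6 WRKY genes outside the set that had a named probe set, WRKY42 rose and WRKY47 fell by 0.73 (adjusted p = 0.00251 in limma). WRKY22 fell by 0.79 (adjusted p = 0.0473 in limma), a call lost in 14 of 26 alternatives, among them without the second or the third control 48 h array (0.121 and 0.157) and without each FAMA 48 h array (0.0618 to 0.133). It was also called lower with FAMA-EAR, at -1.05, a call lost in 13 of 26 alternatives. AtVEX1, the sugar transporter SWEET5, rose by 1.87 (adjusted p = 1.66e-05 in limma), to 223.8, 260.7 and 286.1 in FAMA 48 h seedlings against 56.9, 56.5 and 52.7 in control 48 h seedlings. With FAMA-EAR AtVEX1 was called lower, at -1.02, a call lost in 15 of 25 alternatives. Of the other SWEET genes 6 fell, among them SWEET17 by 0.999 and SWEET1 by 0.97, and 8 of the 15 did not pass, while SWEET6 lost its call in 16 of 25 alternatives, among them without each array of FAMA 48 h and of control 48 h (adjusted p = 0.0612 to 0.199 in limma).

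PRA1.B6 rose by 1.29 (SE 0.137, adjusted p = 4.42e-07 in limma), the 1 of 10 PRA1 genes outside the set that passed. GAMMA-VPE rose by 0.95 (SE 0.0963, adjusted p = 2.36e-07 in limma), with 2782.8, 2732.3 and 3012.4 in FAMA 48 h seedlings against 1333.3, 1561.5 and 1499.6 in control 48 h seedlings, and the other 2 vacuolar processing enzyme genes did not pass. The lectin genes went the other way from JAL23. JAL33 fell by 1.05, JAL22 by 0.48 and JAL34 by 0.42, with adjusted p of 2.74e-07, 0.000156 and 0.00146 in limma. In the TBL family 3 of 22 rose and 2 fell, but TBL32 lost its call without any 1 of the FAMA 48 h or control 48 h arrays (adjusted p = 0.0617 to 0.115 in limma). In GH9 1 of 14 rose and 2 fell, and GH9C1, which rose by 0.80, lost its call without the first or the third FAMA 48 h array (0.0724 and 0.0507) while GH9B16, which fell, lost it without any 1 of the 6 arrays compared (0.0534 to 0.157). Of 5 CLE genes outside the set 0 passed, and CLE44, which encodes the same kind of vascular peptide as CLE41, had a difference of -0.54 (adjusted p = 0.167 in limma). AAE15, the close relative of AAE16, had a difference of 0.15 (SE 0.118, adjusted p = 0.455 in limma).

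**Figure D5:**
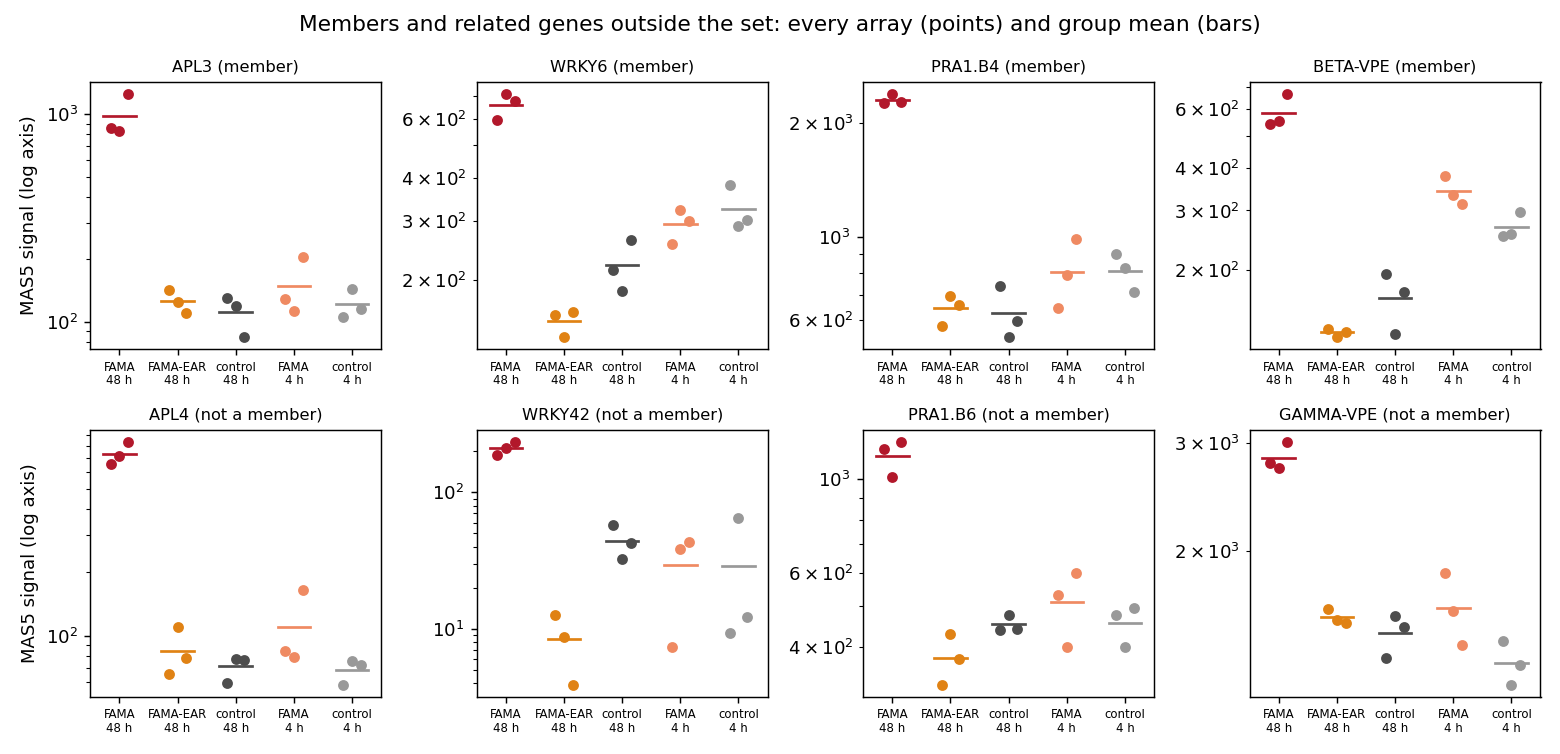
The upper panels show 4 members and the lower panels a relative of each outside the set, with MAS5 signal on a log axis whose range differs between panels. Points are arrays, 3 in each of the 5 groups, and bars are group means. FAMA 48 h points are the highest in all 8 panels, which the rule all but fixed for the 4 members. The relatives rose by 3.05 (APL4), 1.86 (WRKY42), 1.29 (PRA1.B6) and 0.95 (GAMMA-VPE). The panels show only relatives that rose. Of the 80 family genes outside the set, 9 rose and 15 fell.

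Genes next to FAMA on chromosome 3 were also read. AT3G24150, the next gene after FAMA in the TAIR10.1 table, is a member and had signals of 642.0, 744.9 and 717.0 in FAMA 48 h seedlings, 278.9, 231.7 and 192.7 in FAMA-EAR 48 h seedlings, 188.2, 174.8 and 210.9 in control 48 h seedlings, 216.7, 184.1 and 309.3 in FAMA 4 h seedlings and 168.6, 176.8 and 200.5 in control 4 h seedlings. Its difference was 1.77 at 48 h and 0.32 at 4 h. Estrogen induced FAMA from a cassette, and FAMA signal was not split between the cassette and the gene on chromosome 3. The part of the place of AT3G24150 next to FAMA was not tested. The gene before FAMA, AT3G24130, had a difference of 0.05 (adjusted p = 0.967 in limma) at signals near background. GFAT, another member, is 6 genes before FAMA, and AT3G24100, which lies between them and is not a member, rose by 0.95 (SE 0.127, adjusted p = 8.94e-06 in limma). AT3G24100 also had a difference of -0.65 between control 48 h and control 4 h (adjusted p = 0.00214 in limma). Of the other measured genes between GFAT and FAMA, AT3G24110 had a difference of -0.17 (adjusted p = 0.753 in limma) and AT3G24120 of -0.09 (adjusted p = 0.663 in limma). Beyond AT3G24150, GR1 rose by 0.30 (adjusted p = 0.0354 in limma). AT3G24180, AT3G24190 and AT3G24200 had differences of 0.21, -0.22 and 0.25 that did not pass.

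Markers of cell types were read in the same arrays. Of 20 guard cell genes listed, 4 had a named probe set. CHX20 rose by 0.98 and AT4G14480 (BLUS1) by 0.92 at 48 h of FAMA, with adjusted p of 0.000302 and 0.0011 in limma, and AT1G23200 had a difference of 0.34 (adjusted p = 0.404 in limma). AT1G22690 (GC1) had a difference of 1.83, given without a test because it met every other criterion of the rule and was set aside only by name. The summed signal of the 4 was 10278.5 to 12606.0 in FAMA 48 h arrays, 3296.7 to 3419.4 in FAMA-EAR 48 h arrays and 3149.1 to 3743.7 in control 48 h arrays. It was nearly all GC1, so nothing is read from it. Without GC1 the sum was 876.4 to 996.7 in FAMA 48 h arrays, 383.0 to 389.9 in FAMA-EAR 48 h arrays and 391.2 to 585.4 in control 48 h arrays. All 5 mesophyll genes fell, and their sum was 50701.2 to 51764.7 in FAMA 48 h arrays, 77404.6 to 86898.5 in FAMA-EAR 48 h arrays and 78929.2 to 87030.0 in control 48 h arrays. For RCA, of these 5, the call was lost after quantile normalization (adjusted p = 0.727 in limma). Of the 2 measured root genes PYK10 fell by 0.68 (adjusted p = 1.76e-05 in limma), and EXPA7 had a difference of 0.18 (adjusted p = 0.811 in limma). Their sum, nearly all of it PYK10, was 11126.6 to 13402.0 in FAMA 48 h arrays, 17053.9 to 20077.7 in FAMA-EAR 48 h arrays and 18760.9 to 21587.9 in control 48 h arrays.

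Of the listed genes of stomatal development other than FAMA, 3 of 14 had a named probe set. SPCH and STOMAGEN were lower than in control 48 h seedlings by 0.76 and 0.83 (adjusted p = 0.00573 and 5.64e-06 in limma). STOMAGEN rose by 0.80 between the control times (adjusted p = 4.1e-05 in limma). Its mean signal was 464.0 at FAMA 48 h, 473.4 at control 4 h and 841.9 at control 48 h. MUTE had a difference of -0.65 that did not pass. No gene of the 4 listed for the myrosinase system, which marks other FAMA-dependent cells of the leaf, had a named probe set. The lowest marker signal in FAMA 48 h arrays was 117.0 among the guard cell genes, 6015.6 among the mesophyll genes and 132.0 among the root genes. Among the genes of stomatal development it was 5.3, for MUTE, which is near background. The part of cell type shares in the values of the 109 members was not tested.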

How the data were processed

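The 15 samples were hybridised to Affymetrix ATH1 arrays. The deposited values are signal intensity on a linear scale for 22810 probe sets, computed with MAS5 per the submitters' processing notes, in a version not given in the sources used here. Array means trimmed by 2% at each end were 500.04 to 500.048, so the deposited values had been scaled to a common level. Low MAS5 signals carry large relative errors. There are no counts behind them, and precision is limited by how many arrays a group has.

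Without 64 control probe sets, 22746 were fitted as log2(signal + 20) in limma 3.58.1 (R 4.3.3), with a mean per group, 10 residual degrees of freedom and a variance trend. Tests were two-sided, with Benjamini-Hochberg adjustment over all probe sets and a threshold of 0.05. An exact test of 3 arrays against 3 cannot go below p = 0.1. The fit was tested on simulated data. Members, gene lists, roles and families were chosen with earlier results of these data known. The genes named by rule were the 25 named members with the largest difference, members that share a family, up to 5 members in each direction that passed between the control times, those just inside and outside each threshold, and FAMA. Other genes were named after their values were seen.

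Of the probe sets, 13513 had 1 gene, 503 several and 8730 none, and 13436 were found in the TAIR10.1 gene table, which served for names and neighbours. Families were matched by symbol or synonym instead of the planned product names, and calreticulin relatives were not analysed here. A planned search of promoter motifs was not run, since promoter sequences were not used here. Replicate numbers did not pair the samples: correlations of deviations from group means between samples of the same number lay between -0.061 and 0.042. Alternatives were other offsets (1, 50, 100), equal array medians, quantile normalization, each array left out, a filter at the 40th percentile, array weights, a replicate block, other fits and other thresholds of the rule. Plots used matplotlib 3.10.9 and Python 3.11.15.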

Additional observations from a re-analysis of the deposited data

How the results depend on the processing

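The rule chose 266 probe sets with a threshold of 1.0 for the difference at 48 h and 56 with 2.0, between 75 and 135 under the other bounds, normalizations and offsets, and 97 to 117 with 1 array left out. At offsets of 1, 50 and 100 it shared 97, 89 and 72 with the 109. At those offsets the median of FAMA 48 h minus control 48 h over the 109 was 2.11, 1.89 and 1.73, that of FAMA 48 h minus FAMA-EAR 48 h was 2.20, 1.94 and 1.74, and that of FAMA 48 h minus FAMA 4 h was 1.996, 1.74 and 1.55 (1.99 with equal array medians). With 1 array left out these medians were 1.97 to 2.04, 2.05 to 2.14 and 1.82 to 1.997. The median of control 48 h minus control 4 h was -0.10 at an offset of 100 and -0.20 to -0.13 with 1 array left out. The count of members that passed between the control times was 9 with equal array medians, 7 with no variance trend, 9 with a test without moderation and 5 to 17 with 1 array left out; the cause was not tested. With a replicate block it was 12, and the block moved no count by more than 1.5 times, while SWEET6 at 48 h of FAMA (adjusted p = 0.0612) and WRKY6 between the control times no longer passed in limma with it. The fixed lists had 11 calls, GC1 among them, and the families 19 to 31 with 1 array left out. Of 54 named calls, GC1 at 48 h of FAMA among them, 33 held under every alternative run for them and 0 reversed. The 54 also held the calls of named members between the control times. Those calls and that of GC1 at 48 h of FAMA are tied to the rule, so nothing is read from whether they held. Low signals limit what can be read: 30 members had control 48 h signals under 100.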
